A study of Mus musculus with 2 samples.

Results

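Gas1, Cdon and Boc are the 3 Hedgehog co-receptor genes described here, chosen by symbol from the 56694 genes of the deposited count table. Each symbol matched 1 gene identifier, and all 3 genes were detected in both libraries. Gas1 (ENSMUSG00000052957.9) is a gene with 1 exon on the minus strand of chromosome 13 from 60322219 to 60325179 in GRCm39. Cdon (ENSMUSG00000038119.16) lies on the plus strand of chromosome 9 from 35332424 to 35418948, with 20 exons in its canonical transcript. Boc (ENSMUSG00000022687.13) lies on the minus strand of chromosome 16 from 44305290 to 44379432, with 19 exons. Annotated lncRNAs overlap Gas1 (Gm48488) and Boc (Gm30064) on the opposite strand, and an rRNA gene (Gm54873) overlaps Cdon there, so reads assigned without strand could not be separated at these places. On the same strand, the lncRNA Gm68331 and the snRNA gene Gm25630 lie within Cdon, and the lncRNA Gm61613 and the miRNA gene Mir3081 within Boc, and strand does not separate reads in those stretches. These overlaps are those of GENCODE M39. The study counted reads with an earlier GENCODE release, in which the overlaps were not checked. Cell Ranger counts sense reads by default, but the strand setting is not given in the sources used here.

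Hedgehog ligands such as Shh bind the receptor Ptch1, which otherwise holds the transducer Smo in check, and Gli transcription factors then carry the signal to target genes that include Ptch1 and Gli1 themselves. Gas1 is a GPI-anchored surface protein, whereas Cdon and Boc are related transmembrane proteins of the immunoglobulin superfamily. All of them bind ligand together with Ptch1 and promote Hedgehog signalling during embryonic development. In skin, Shh is made by the growing hair follicle and is received both by follicle keratinocytes and by the underlying dermis, including the dermal papilla.

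Single-cell RNA was counted in epidermal whole mounts of back skin at postnatal day 2 with the 10x Genomics 3' assay, in 1 library per genotype. The control library carries the label WT, and the study's controls were littermates of the knockout with floxed alleles and no Cre. The Gli2EKO library came from K14Cre transgenic Gli2 fl/fl mice, in which Cre acts in keratinocytes from embryonic stages, so dermal, immune and pigment cells in that library were not targeted. The number of mice behind each library is not given in the sources used here, and with 1 library per genotype no test between genotypes was possible. Every interval below is an exact 95% interval that covers counting error only.

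After quality limits and removal of likely doublets, 4456 control and 3093 Gli2EKO cells remained, with median depths of 11828 and 11936 unique molecular identifiers (UMIs) per cell. No cell barcode was shared by the libraries. Levels are in CPM, which is how many of every 1000000 UMIs in a group of cells belonged to the gene. In keratinocytes the targeted gene Gli2 was at 83.0 CPM in control and 84.6 CPM in Gli2EKO. That level is no check of the genotype labels, since the assay reads the 3' end and the deleted exons are not given in the sources used here. Cells were grouped by clustering and named from marker genes into interfollicular epidermis (IFE), hair follicle and dermal compartments. One dermal cluster, in which Ebf1, Lrrc15 and Sox18 were among the leading genes, stayed unnamed and was kept among the dermal cells. The IFE held 16.6% of control cells and 32.4% of Gli2EKO cells, the follicle 57.1% and 41.0%, and the dermal compartment 19.0% and 21.0%. The dermal cells are those left after the collagenase step that removes most of the dermis, so their share does not describe intact skin.

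Gas1 transcripts were counted mainly outside the hair-forming part of the follicle. In control cells, Gas1 stood at 345 CPM in the dermal compartment, at 195 CPM in the IFE and at 92.1 CPM in the follicle. In Gli2EKO cells the same compartments had 390.4, 277 and 115 CPM. The order of the compartments was therefore the same in both libraries, and no 2 of these intervals overlapped within a library.

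Cdon followed the same order with a steeper fall towards the follicle. Its level was 93.7 CPM in control dermal cells, 50.9 CPM in the IFE and 14.3 CPM in the follicle. The Gli2EKO values were 88.5, 58.7 and 14.0 CPM. The follicle, with over 40% of the cells of each library, held 21.0% of the control Cdon UMIs and 11.5% of those in Gli2EKO.

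Boc had another distribution. It was at 58.4 CPM in control dermal cells, at 55.1 CPM in the follicle and at 30.5 CPM in the IFE, and the dermal and follicle intervals overlapped. In Gli2EKO the levels were 75.0, 63.7 and 23.1 CPM. The follicle held 62.4% of all control Boc UMIs and 50.8% of those in Gli2EKO, so Boc was the member with most of its UMIs in follicle keratinocytes.

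**Figure D1:**
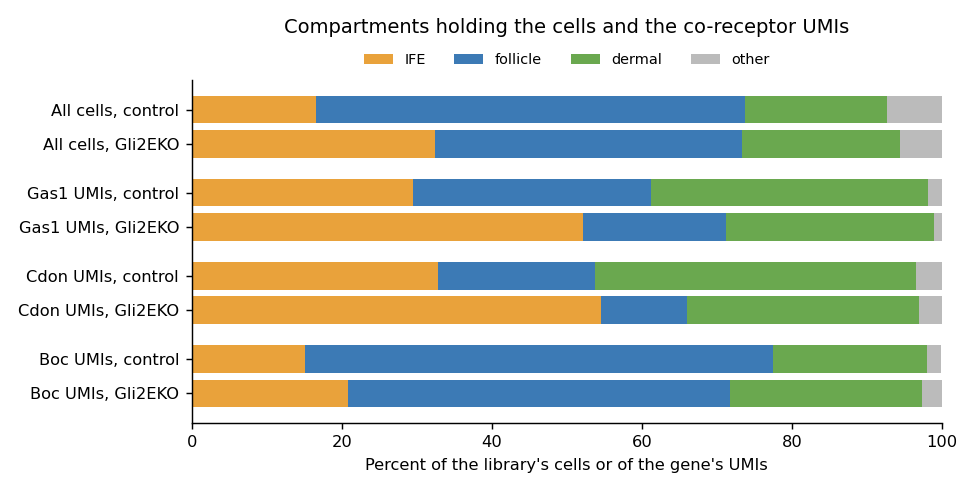
Stacked bars give the percent of each library's cells (top pair) and of each gene's UMIs (lower pairs) that fall in the IFE, follicle, dermal and other cells. The IFE share of Gas1 UMIs was 29.5% in control and 52.1% in Gli2EKO, beside 16.6% and 32.4% of the cells.

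The share of the transcripts found in the IFE was larger in the Gli2EKO library for all 3 genes. For Gas1 it was 29.5% (95% interval 28.5 to 30.4%) in control and 52.1% (51.1 to 53.1%) in Gli2EKO. Cdon went from 32.8% to 54.5% and Boc from 15.1% to 20.9%. The share of IFE cells among all cells was also larger in Gli2EKO, and the 2 cannot be told apart in a percentage of UMIs, which is why the levels within each compartment are given next.

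Within cell classes, Gas1 separated basal, outer and dermal cells from the differentiating inner follicle. Its highest named class was the fibroblast-like class, marked by Col1a1 and Col1a2, with 378 CPM in control and 445 CPM in Gli2EKO. IFE basal-like cells, which carry Krt14, Krt5 and Krt15, followed with 269 and 359 CPM. Upper follicle-like cells had 207 and 204 CPM, and outer root sheath (ORS)-like cells 147 and 178 CPM. Companion-like cells, a cluster led by Cst6, Krt79 and Krt6a, had 116 and 75.4 CPM. Their name comes from such markers and does not fix their place in the follicle. IFE suprabasal-like cells, which carry the differentiation keratins Krt1 and Krt10, had 68.4 and 143 CPM.

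Gas1 was close to absent in the cells that build the hair. Matrix-like cells, the dividing cells at the base of the follicle, had 7.13 CPM in control and 21.8 CPM in Gli2EKO. Inner root sheath (IRS)-like cells had 5.74 and 20.8 CPM, and hair shaft-like cells 4.06 and 6.42 CPM. At an equal depth of 2000 UMIs per cell, 1.04% of control matrix-like cells, 1.18% of IRS-like cells and 0.467% of hair shaft-like cells had a Gas1 UMI. Immune-like cells, which serve as a measure of free RNA, had none in 93 control cells, which allows a share of up to 3.23%, so these 3 shares were not distinguishable from background. The median depth was 9942 UMIs in control immune-like cells and 17149 in matrix-like cells. In comparison, 38.3% of control IFE basal-like cells and 40.2% of fibroblast-like cells had a Gas1 UMI at that depth.

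The dermal papilla-like cells stood apart from the other dermal cells. These cells, led by Rspo3, Crabp1 and Corin, had Gas1 at 43.7 CPM in control and 81.0 CPM in Gli2EKO, far below the fibroblast-like class of the same libraries. Cdon was nearly missing from them, with 4 UMIs in 192 control cells and 5 UMIs in 159 Gli2EKO cells. Boc was at 27.9 and 35.4 CPM in papilla-like cells, against 60.6 and 84 CPM in fibroblast-like cells. Ptch1, the receptor and a Hedgehog target gene, went the other way, with 1313 and 1208 CPM in papilla-like cells and 304 and 299 CPM in fibroblast-like cells.

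Cdon had its highest class levels in fibroblast-like cells, at 113 and 108 CPM, and in IFE basal-like cells, at 74.8 and 89.3 CPM. Upper follicle-like cells had 58.9 CPM in control and 40.2 CPM in Gli2EKO. In all other follicle classes Cdon was under 20 CPM in both libraries, with 11.7 and 12.6 CPM in ORS-like cells and 5.92 and 5.53 CPM in matrix-like cells. At 2000 UMIs per cell, Cdon was seen in 2.78% of control ORS-like cells and 1.82% of matrix-like cells. The share in control immune-like cells was 4.30% (4 of 93 cells, 95% interval 1.18 to 10.6%), so neither share was above that measure of background. The shares in IFE basal-like cells (13.4%) and fibroblast-like cells (19.1%) were above that interval, and the share in upper follicle-like cells (10.4%) was at its upper end. Immune-like cells were not the lowest control class for Cdon, with 9 UMIs in 93 cells. Papilla-like cells had 4 in 192 cells and companion-like cells 6 in 177. ORS-like cells had 153 in 1082 cells and matrix-like cells 39 in 385. Whether these ORS-like and matrix-like UMIs are free RNA was not tested.

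Boc was the member seen across the follicle, with few UMIs in sebaceous gland (SG)-like cells. Those cells had 24 Boc UMIs (23.3 CPM) in control and 4 UMIs (4.93 CPM) in Gli2EKO. Upper follicle-like cells had 93.4 CPM in control and 77.5 CPM in Gli2EKO, and ORS-like cells 74.3 and 97.9 CPM. Hair shaft-like cells had 41.5 and 33.7 CPM, matrix-like cells 28.4 and 23.6 CPM and IRS-like cells 27.1 and 33.0 CPM. In IFE basal-like cells Boc was at 39 and 28.2 CPM, and in IFE suprabasal-like cells at 15.9 and 14.7 CPM. Boc was thus found in the hair-forming classes where control Gas1 was near background, with 6.51% (4.26 to 9.46%) of control matrix-like and 10.3% (6.56 to 15.2%) of hair shaft-like cells positive at 2000 UMIs. The share of immune-like cells was 1.08% (0.0272 to 5.85%), an interval that overlaps the first of these and not the second.

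**Figure D2:**
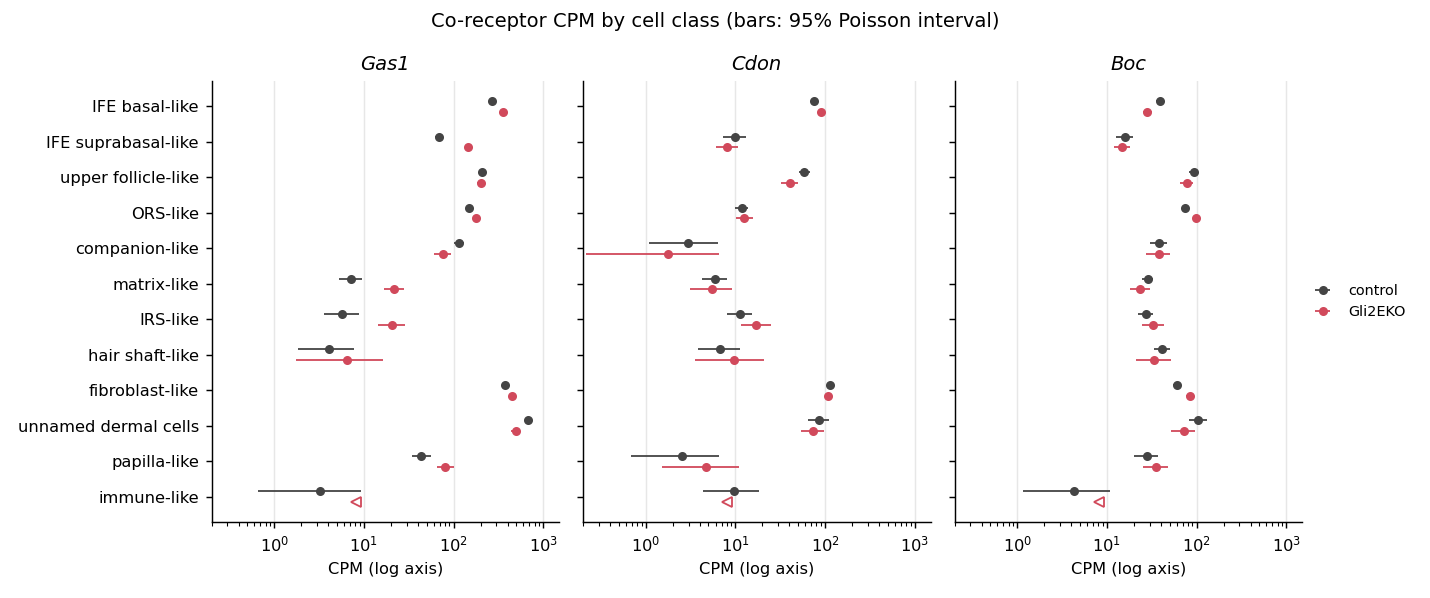
Points give the CPM (log axis) of each gene in 12 cell classes, dark for control and red for Gli2EKO, with exact 95% Poisson intervals as bars. Open triangles mark the upper limit where no UMI was counted. Gas1 drops to 4.06 to 7.13 CPM in control matrix-, IRS- and hair shaft-like cells, where Boc stays at 27.1 to 41.5 CPM.

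Single clusters showed further differences inside these classes. Among the ORS-like clusters, the one led by Adamts19 and marked by Sox9 and Barx2 had Gas1 at 409.8 CPM in control and 510.5 CPM in Gli2EKO. The other ORS-like clusters, led by Sfrp1, Tbx1 and Tagln, lay between 83.9 and 128 CPM. The Adamts19-led cluster was also the highest of all clusters for Boc over both libraries together, with 173 and 198 CPM, and it had the highest Cdon level of the ORS-like clusters, with 35.0 and 37.2 CPM. Ptch1 in it was at 125 and 144 CPM. In the Tagln-led cluster, where Ptch1 was at 656 CPM in control, Cdon had 3 UMIs in that library.

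The dermal clusters spanned a wide range of Gas1 levels. The Coch-led cluster had 957 CPM in control and 703 CPM in Gli2EKO, and the Lum-led cluster 813 and 745 CPM. The unnamed Ebf1-led cluster had 681 and 493 CPM. The Clstn2-led papilla-like cluster had 21.7 CPM in control, from 12 UMIs, and 90.4 CPM in Gli2EKO, from 52 UMIs. Cdon was highest in the Lum-led cluster, with 298 and 201 CPM, which had the lowest control Ptch1 level of the dermal clusters at 106 CPM. One small keratinocyte cluster of 36 control and 37 Gli2EKO cells, without a name and with a median of 4311 UMIs, had Cdon at 199 and 242 CPM and Boc at 139.6 and 225 CPM.

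Over 54 sums of cluster and library with at least 20 cells, the levels of the members on the log2(CPM + 10) scale rose and fell together, with Pearson r of 0.72 for Gas1 and Cdon, 0.66 for Gas1 and Boc and 0.62 for Cdon and Boc. With Ptch1 the values were 0.25 for Gas1, 0.19 for Cdon and 0.45 for Boc. These points share libraries, and both libraries contribute the same clusters, so they are a description without a test. Within the 17 points of dermal clusters the relation to Ptch1 was negative, at -0.73 for Gas1, -0.82 for Cdon and -0.57 for Boc. Within the 28 keratinocyte points it was -0.04 for Gas1, 0.07 for Cdon and 0.52 for Boc. Of the pathway genes, Ptch1, Gli1, Gli2, Gli3, Smo and Hhip were compared in this way. Among these, Boc was closest to Gli2 with r of 0.72 and to Smo with r of 0.67.

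**Figure D3:**
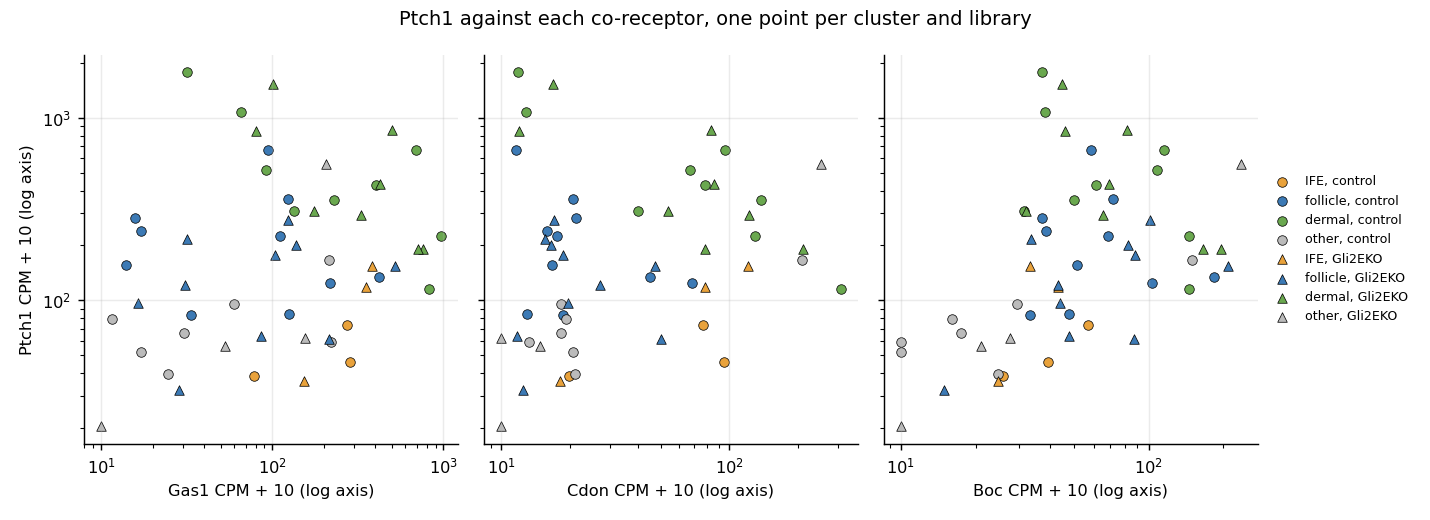
Each point is the sum of 1 cluster in 1 library, with the member's CPM + 10 on the horizontal and Ptch1 CPM + 10 on the vertical log axis. Circles are control and triangles Gli2EKO, and colours give the compartment. Dermal points (green) run from the papilla-like clusters at the upper left to the Lum- and Coch-led clusters at the lower right.

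The genes most like each member over the same 54 points, among 11389 genes with at least 500 UMIs, differed between members. For Gas1 they were Nbl1 (r = 0.91), Col7a1 (0.81), Hmgn3 (0.80), Nfix (0.78) and Cavin3 (0.78). For Cdon they were Col7a1 (0.83), Nfia (0.77), Peg3 (0.75), Adamts14 (0.75) and Gramd2 (0.73). For Boc they were Lrig3 (0.80), Gm53 (0.78), Ntf3 (0.77), Lrig1 (0.77) and Nfix (0.77). Col7a1 was therefore on the lists of Gas1 and Cdon, and Nfix on those of Gas1 and Boc.

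Comparing the genotypes within compartments asks whether co-receptor levels differ where Gli2 was deleted and in the dermal cells where it was not. In the IFE, the Gas1 log2 ratio of Gli2EKO over control was 0.51 (95% interval 0.44 to 0.58), that of Cdon 0.21 (0.07 to 0.34) and that of Boc -0.40 (-0.60 to -0.20). In the follicle the ratios were 0.32 (0.24 to 0.41) for Gas1, -0.03 (-0.27 to 0.20) for Cdon and 0.21 (0.10 to 0.32) for Boc. In dermal cells they were 0.18 (0.10 to 0.25), -0.08 (-0.23 to 0.07) and 0.36 (0.19 to 0.54). The median log2 ratio over all genes with at least 50 UMIs was -0.08 in the IFE, -0.06 in the follicle and -0.01 in dermal cells. Dermal Gas1 was at -0.01 when counted as mean UMIs per cell. With Gli2EKO clusters weighted to their control shares of cells, Gas1 was at 0.16 in the follicle and 0.06 in dermal cells.

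None of the 3 members reached a 1.5-fold difference in any of the 3 compartments. Over all genes with at least 50 UMIs, 2.95% were at least 1.5-fold higher and 6.76% lower in the Gli2EKO IFE. In the follicle the shares were 4.32% higher and 5.46% lower, and in dermal cells 3.05% higher and 4.40% lower. The dermal values of the members, from cells not targeted by Cre, show differences of a size similar to those in the follicle. The IFE differed more, with Gas1 at 0.51 against 0.18 in dermal cells and Boc at -0.40 against 0.36. The spread between libraries of 1 genotype is unknown.

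Single classes did pass 1.5-fold for Gas1. In IFE suprabasal-like cells Gas1 went from 353 UMIs in 219 control cells to 951 UMIs in 313 Gli2EKO cells, a log2 ratio of 1.06 (0.88 to 1.24), in a class where 2.79% of genes were as much higher. At 2000 UMIs per cell, 12.3% (8.28 to 17.4%) of control and 23% (18.5 to 28.1%) of Gli2EKO cells of this class had a Gas1 UMI. The UMIs were spread over 112 and 195 cells, and the 3 richest cells held 12.2% and 6.41% of them. Cdon and Boc did not move with Gas1 in these cells, with log2 ratios of -0.29 (-0.87 to 0.29) and -0.11 (-0.55 to 0.33).

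In IFE basal-like cells the Gas1 ratio was smaller, at 0.42 (0.34 to 0.49). It was 0.44 and 0.38 in the 2 basal-like clusters. Boc was lower in Gli2EKO in the basal-like class, with a log2 ratio of -0.47 (-0.70 to -0.24), and Cdon was at 0.26 (0.11 to 0.40). Ptch1 in the same cells went from 51.2 to 126 CPM, beside 60.9 (46.1 to 78.9) and 19.8 CPM (9.05 to 37.6) in immune-like cells.

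The classes in which Gas1 was near background in control had larger ratios on few UMIs. Matrix-like cells had 47 Gas1 UMIs in control and 59 in Gli2EKO, a log2 ratio of 1.61 (1.03 to 2.19), where 4.49% of genes were at least 1.5-fold higher. IRS-like cells had 21 and 34 UMIs and a ratio of 1.85 (1.03 to 2.71), where the share of genes was 5.0%. The 3 richest cells held 44.7% and 35.6% of these UMIs in matrix-like cells and 47.6% and 44.1% in IRS-like cells. At 2000 UMIs per cell, 3.75% of Gli2EKO matrix-like and 2.27% of Gli2EKO IRS-like cells had a Gas1 UMI. Among Gli2EKO immune-like cells it was 0 of 36, which allows a share of up to 8.33%. By level, Gas1 was at 21.8 CPM in Gli2EKO matrix-like and 20.8 CPM in Gli2EKO IRS-like cells, beside 0 UMIs in 37 Gli2EKO immune-like cells. Without integration of the libraries the matrix-like ratio was 0.58.

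Papilla-like Gas1 had a log2 ratio of 0.89 (0.42 to 1.37), where 5.59% of genes were at least 1.5-fold higher, but without doublet removal it was 0.02 and with a stricter mitochondrial limit -0.23. Companion-like cells had less Gas1 in Gli2EKO, with 236 and 84 UMIs and a log2 ratio of -0.62 (-1.0 to -0.26), in a class where 8.84% of genes were as much lower, and without integration the ratio was -0.29. The 3 richest companion-like cells held 22.5% of these UMIs in control and 27.4% in Gli2EKO, and the control cells held more collagen RNA, as given below. In melanocyte-like cells the Gas1 ratio was 1.05 (0.27 to 1.85), where 6.44% of genes were as much higher, and it was -0.12 without doublet removal. Cdon passed 1.5-fold higher in IRS-like cells alone, at 0.61 (-0.14 to 1.34), an interval that includes no difference. Boc did not pass it in any named class where both libraries together held 50 UMIs or more. The small unnamed keratinocyte cluster had a Boc ratio of 0.69 (-0.07 to 1.46), where 7.85% of genes were as much higher.

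**Figure D4:**
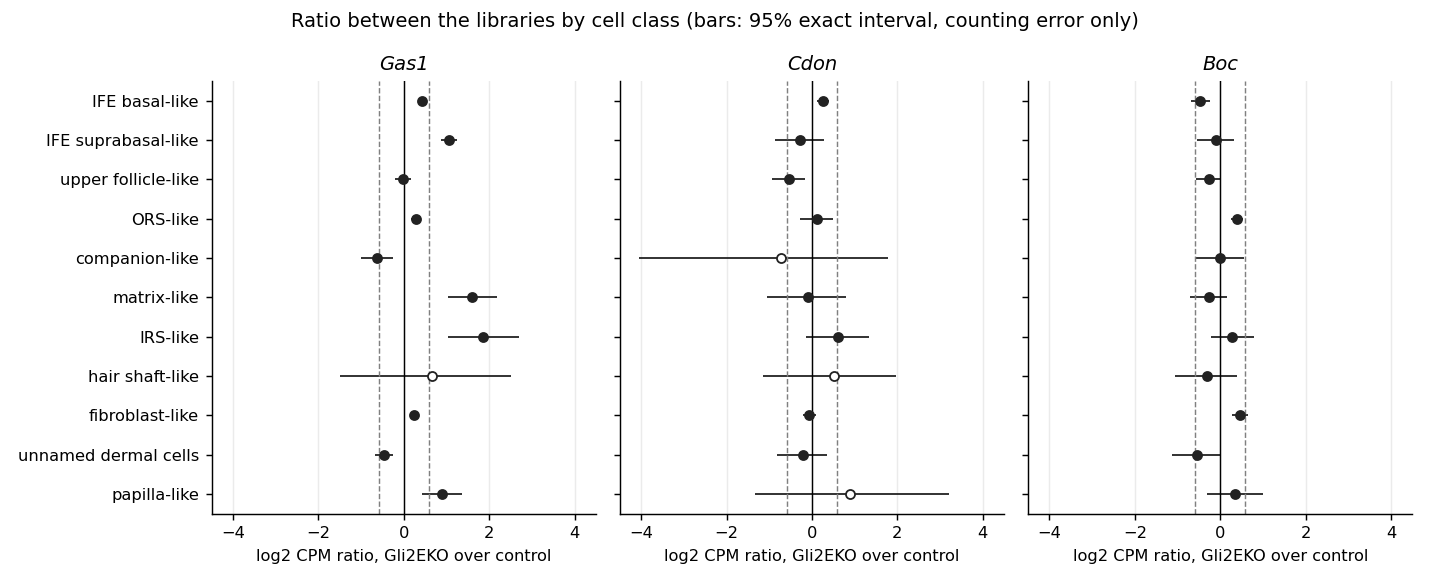
Points give the log2 ratio of CPM in Gli2EKO over control in 11 cell classes, with exact 95% intervals for counting error. Dashed lines mark 1.5-fold and open points mark classes with fewer than 50 UMIs over both libraries. Gas1 in IFE suprabasal-like cells lies at 1.06, and the matrix- and IRS-like points at 1.61 and 1.85 have wide intervals.

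Collagen UMIs gave an estimate of how much Gas1 in keratinocyte counts RNA from dermal cells could supply. In control dermal cells there were 14.1 Gas1 UMIs for every 1000 UMIs of the collagen genes Col1a1, Col1a2 and Col3a1, and in control IFE basal-like cells 2611. If all collagen UMIs in IFE basal-like cells came from dermal RNA of that average make-up, it would account for 0.541% of their Gas1 UMIs in control and 0.417% in Gli2EKO. In IFE suprabasal-like cells the shares would be 1.93% and 1.32%. In matrix-like cells they would be 21.1% of the control and 7.66% of the Gli2EKO Gas1 UMIs, and in control IRS-like cells 28.9%. The dermal clusters differed, with up to 71.1 Gas1 UMIs for every 1000 collagen UMIs in control and 66.4 in Gli2EKO. At those ratios the shares would be 2.72% and 1.51% in IFE basal-like cells and 9.70% and 4.76% in IFE suprabasal-like cells. In matrix-like cells they would be 106% in control and 27.7% in Gli2EKO, and in IRS-like cells 145% and 37.5%, so RNA from such a dermal cluster would be enough for all control Gas1 UMIs of both classes. In companion-like cells the collagen genes were at 429.6 CPM in control and 84.3 CPM in Gli2EKO, and the shares would be 26.3% and 7.43%. How much of their Gas1 ratio this accounts for was not tested. For Cdon in control, the average make-up would account for 3.96% of ORS-like and 6.90% of matrix-like UMIs. At the highest Cdon ratio of a dermal cluster these shares would be 9.23% and 16.1%. For Cdon this estimate and the immune-like shares differ, and which is nearer to the free RNA was not tested.

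The other Hedgehog pathway genes were read from a list of 21. In the IFE, 14 of them had at least 50 UMIs, 3 of which were at least 1.5-fold higher in Gli2EKO (Ptch1, Gli1 and Gli2) and 4 lower (Gpr161, Scube2, Gpc4 and Gpc6). The targets had log2 ratios of 1.04 for Ptch1 and 0.94 for Gli1, while Smo, the signal transducer, was at -0.04. Both targets were low in the control IFE, with Gli1 at 3.35 CPM from 47 UMIs and Ptch1 at 42.8 CPM. That Ptch1 level was not above the control immune-like level given earlier. The cells differed in depth, with medians of 16713 UMIs in the control IFE and 9942 in control immune-like cells. By count, Ptch1 had 600 UMIs in 741 control IFE cells and 57 in 93 control immune-like cells. Whether the Ptch1 UMIs of the control IFE are free RNA was not tested. In the follicle, 18 genes were measured, none was higher and 5 were lower (Ptch1, Hhip, Gli1, Gli3 and Scube2). Ptch1 there went from 236 to 141 CPM and Gli1 from 30.3 to 19.0 CPM. In dermal cells, 17 were measured and 2 were lower, Hhip at -0.71 and Scube1 at -0.98. The list medians were -0.01, -0.34 and -0.13, beside the medians over all genes given above. Gas1 was thus higher in Gli2EKO both in the IFE, where Ptch1 was higher, and in the follicle, where Ptch1 was lower, although the follicle ratio of 0.32 fell to 0.16 at control cluster shares.

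Co-detection with Ptch1 was read at an equal depth of 5000 UMIs per cell, and compared with the product of the single shares, the value if the genes were found independently. Ptch1 itself was found in 19.7% (11.2 to 30.9%) of 71 control and 12.5% (3.51 to 29.0%) of 32 Gli2EKO immune-like cells at this depth. The Ptch1 shares of 17.0% in the control IFE and 27.6% in the Gli2EKO IFE were not above those intervals, so co-detection in the IFE is not read as co-expression here. The Gli2EKO interval is wide, since it rests on 4 Ptch1-positive cells. By level, Ptch1 was at 88.2 CPM (83.8 to 92.6) in the Gli2EKO IFE, above the Gli2EKO immune-like interval given earlier. In the control IFE it was at 42.8 CPM, not above the control immune-like level, although the depths differed as given above. The shares in dermal cells (68.8% and 68.9%) and in the follicle (49.7% and 38.2%) were above them. In the control IFE, 50.8% of 724 cells had a Gas1 UMI. Both were found in 9.12% (7.12 to 11.5%), against 8.64% for the product. In the Gli2EKO IFE, 19.8% (17.3 to 22.4%) of 975 cells had both, against 16.8% for the product. The product taken within clusters, 18.1%, lay inside that interval.

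Cdon and Ptch1 were found together more often than the product in the Gli2EKO IFE. Both were seen in 11.1% of cells (9.18 to 13.2%), against 7.61% for the product over all cells and 9.24% for the product within clusters, which lay just inside the interval. Of the Cdon-positive cells 40.1% had a Ptch1 UMI, and of the Cdon-negative cells 22.8%. In the control IFE the observed share was 3.59% and the product 3.50%. The ratio of observed to product in the Gli2EKO IFE, 1.46 (1.21 to 1.74), was 1.18 both without integration and with the stricter mitochondrial limit. Boc and Ptch1 were both seen in 2.62% of control and 4.31% of Gli2EKO IFE cells, with products of 2.44% and 3.28% inside the intervals.

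In control dermal cells Gas1 and Cdon were each found with Ptch1 less often than the product. For Gas1 the share was 32.3% (29.0 to 35.8%) against 37.2%, and for Cdon 15.3% (12.8 to 18.1%) against 18.7%. Of the Gas1-positive control dermal cells 59.8% had a Ptch1 UMI, and of the Gas1-negative cells 79.5%. The products within clusters, 33.6% for Gas1 and 16.0% for Cdon, lay inside the intervals, so the deficit was seen between clusters. For Boc the share was 14.1% (11.7 to 16.8%), an interval that holds the product of 15.0%. In Gli2EKO dermal cells the Gas1 share was 41.2% and the product 42.6%.

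In the follicle, Gas1 and Ptch1 were both found in 13% of control cells (11.7 to 14.5%), against 14.4% for the product and 13.1% within clusters. Cdon and Ptch1 were both found in 2.35% (1.77 to 3.07%), against 3.22% over all cells and 2.70% within clusters. For Boc the observed share of 10.4% was close to the product within clusters of 10.3%. In the Gli2EKO follicle the observed shares of 13.4%, 2.23% and 11.5% all had the product over all cells inside their intervals.

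**Figure D5:**
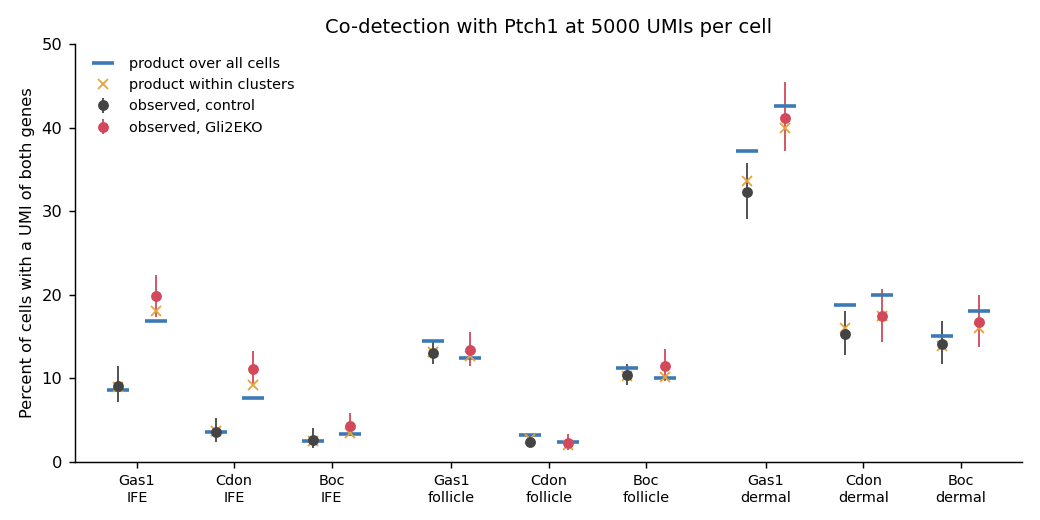
Points give the percent of cells with a UMI of both the member and Ptch1 at 5000 UMIs per cell, dark for control and red for Gli2EKO, with exact 95% intervals. Blue dashes mark the product of the single shares over all cells and orange crosses the product within clusters. Control dermal Gas1 lies at 32.3%, below 37.2% and near 33.6%, and Gli2EKO IFE Cdon at 11.1% lies above 7.61%, with 9.24% at the lower end of its interval.

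The share of Ptch1-positive cells without a UMI of any member varied from class to class. Of 192 Ptch1-positive control matrix-like cells, 81.8% (75.6 to 87.0%) had no UMI of Gas1, Cdon or Boc, and of 75 in Gli2EKO 80.0%. In papilla-like cells it was 71.5% of 165 in control and 68.9% of 122 in Gli2EKO. In hair shaft-like cells the control share was 81.5% of 81 cells, and in ORS-like cells 45.1% of 574. IRS-like cells differed between the libraries, with 79.9% (72.8 to 85.8%) of 159 cells in control and 31.8% (13.9 to 54.9%) of 22 in Gli2EKO. The share of all Gli2EKO IRS-like cells with a Ptch1 UMI, 22.9%, was within the immune-like interval, against 59.1% in control. In contrast, 23.9% of 92 control and 13.3% of 233 Gli2EKO Ptch1-positive IFE basal-like cells had none, and 25.2% of 305 and 15.3% of 222 fibroblast-like cells. Of all IFE basal-like cells, 18.1% in control and 34.4% in Gli2EKO had a Ptch1 UMI, and the control share was not above that of immune-like cells. In control, any member was found in 18.0% of all matrix-like cells and 18.2% of the Ptch1-positive ones. The pairs were 29.4% and 28.5% in papilla-like, 20.7% and 18.5% in hair shaft-like and 59.8% and 54.9% in ORS-like cells. They were 75.0% and 76.1% in IFE basal-like and 77.6% and 74.8% in fibroblast-like cells. The control shares thus followed how often the members were found in each class. Gli2EKO IRS-like cells differed, with 27.1% and 68.2%. A cell without a UMI at this depth may still hold the transcript, so these shares compare classes at 1 depth and do not count cells that lack the co-receptors.

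Cells with all 3 co-receptors were few. At 5000 UMIs they made up 8.99% of control and 11.5% of Gli2EKO fibroblast-like cells, 4.13% and 3.55% of IFE basal-like cells and 1.32% and 1.44% of ORS-like cells. Upper follicle-like cells had 3.50% and 3.25%. The unnamed dermal cells went the other way from the fibroblast-like class, with 13.1% of 61 control and 5.56% of 54 Gli2EKO cells. No matrix-like, papilla-like or IFE suprabasal-like cell of either library had all 3. Gas1 and Boc were found together in 9.37% of control follicle cells, against 6.58% for the product over all cells and 9.10% within clusters. Gas1 and Cdon were found together in 14.1% (11.6 to 16.8%) of control IFE cells, against 10.5% over all cells and 12.1% within clusters.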

How the data were processed

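UMI counts per gene and barcode were deposited by the authors as filtered Cell Ranger 9.0.1 output on GRCm39 with 56694 genes, without normalization. The libraries held 6326 control and 4296 Gli2EKO barcodes with 71021773 and 48866478 UMIs. Barcodes with more than 1000 and fewer than 8000 genes and under 15% mitochondrial UMIs were kept (4844 and 3362). Scrublet in scanpy 1.11.5 scored doublets, and because its automatic threshold marked 260 control but only 5 Gli2EKO cells, the top 8% of scores per library were removed. Counts were log-normalised in Seurat 5.3.0, with 2000 variable genes, 20 principal components, a rewritten Harmony integration and clustering at a resolution of 0.5, leaving the Hedgehog pathway genes out of the variable genes so that they did not shape the clusters. Keratinocytes and dermal cells were clustered again on their own.

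A cluster was named "-like" when its marker score was at least 1, at least 3 markers were found in 10% of cells, and its 10 leading genes did not favour another class. Dcn, a fibroblast gene, was among the leading genes of the matrix-like cluster. These limits, and the placing of the unnamed dermal cluster, were set after seeing the data. CPM was taken from class sums, as UMIs of the gene in every 1000000 UMIs. Intervals are exact Poisson, Clopper-Pearson or conditional binomial, and the limit for a count of 0 is 3 counts. Shares of cells used thinning to 2000 UMIs, and co-detection thinning to 5000. Calls are a CPM ratio of 1.5-fold in genes with 50 UMIs or more when the libraries are added. With 1 library per genotype no test was run. The genes, lists and markers were chosen with earlier results of these data known. Named genes are the 3 members, the pathway list, markers and leading genes of clusters, and the 5 genes most like each member. Gene positions are from GENCODE M39. One gene of the pathway list is not reported here. Scripts were tested on simulated data.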

Additional observations from a re-analysis of the deposited data

How the results depend on the processing

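Of 515 values recomputed under alternatives for 62 results, 444 stayed within the counting interval of the reported value, 69 moved outside it and 2 reversed, meaning that a ratio past 1.5-fold changed sign. Among 133 log2 ratios under alternatives, 9 had the opposite sign, and for 3 of these the interval of the reported value did not hold 0: melanocyte-like, papilla-like and dermal Gas1. The Gas1 log2 ratio of Gli2EKO over control ran from 0.40 to 0.62 in the IFE, from 0.16 to 0.38 in the follicle and from -0.01 to 0.24 in dermal cells. Boc ran from -0.50 to -0.19 in the IFE, from 0.08 to 0.30 in the follicle and from 0.18 to 0.49 in dermal cells. Gas1 in IFE suprabasal-like cells ran from 0.95 to 1.06 under the 5 alternatives that kept this class. The share of Ptch1-positive matrix-like control cells without a member ran from 78.5 to 82.0%. The alternatives that weighted the dermal clusters, subtracted dermal RNA or left out papilla-like cells were chosen after seeing the data. No paired analysis was possible because each genotype has 1 library. For the moved and reversed values below, the cause was not tested except for thinning, which by its construction changes the share of cells with a UMI.

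With Gli2EKO clusters weighted to control shares, the Gas1 log2 ratio was 0.16 in the follicle and 0.06 in dermal cells. With mean UMIs per cell, the ratios were 0.40 for Gas1 in the IFE, and in dermal cells -0.01 for Gas1, -0.27 for Cdon and 0.18 for Boc. With pathway genes kept among the variable genes, the IFE ratios were 0.62 for Gas1 and -0.19 for Boc, and the shares of follicle cells with a UMI were 15.1% for Gas1 in Gli2EKO and, for Boc, 11% in control and 10.8% in Gli2EKO. At a resolution of 1 the IFE Gas1 ratio was 0.62. With the automatic doublet threshold, dermal cells held 29.3% of Gas1 and 33.2% of Cdon UMIs in Gli2EKO. Without doublet removal they held 39.6% of Gas1 and 23.8% of Boc UMIs in control and 29.6% of Gas1 and 33.8% of Cdon UMIs in Gli2EKO, and melanocyte-like Gas1 reversed to -0.12. Without integration, the follicle shares with a UMI were 13% and 15.1% for Gas1 and 2.06% for control Cdon, and the Cdon co-detection ratio in the Gli2EKO IFE was 1.18. With a mitochondrial limit of 5%, the Boc follicle ratio was 0.08 and the Cdon IFE ratio 0.37. The follicle shares with a UMI were then 18.6% and 20.5% for Gas1, 3.83% for control Cdon and 11% for Gli2EKO Boc, dermal cells held 28.2% of Gli2EKO Boc UMIs, IFE co-detection ratios were 1.18 for Cdon in Gli2EKO and 0.570 for Boc in control, and papilla-like Gas1 reversed to -0.23.

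Without thinning, the shares with a UMI in control and Gli2EKO were 68.2% and 70.8% for Gas1, 42% and 40.4% for Cdon and 36.6% and 40.9% for Boc in dermal cells, and 39.6% and 46.6%, 12.2% and 12.2%, and 38.9% and 41.4% in the follicle. The Cdon co-detection ratio in the control follicle was then 0.960. At 5000 UMIs the dermal shares were 54.1% and 61.8%, 27.2% and 28.9%, and 21.7% and 26.3%, and the follicle shares 29.1% and 32.4%, 6.48% and 6.33%, and 22.6% and 26.1%. At 2000 UMIs the co-detection ratios were 0.716 and 0.811 for dermal Gas1, 0.610 for control dermal Cdon, 0.755 for control follicle Gas1, 1.33 for control IFE Gas1 and 1.42 for Gli2EKO follicle Boc.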
